A study of Mus musculus with 8 samples.

Results

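Vimentin, the keratins and the lamins were followed in Paneth cells sorted from the mouse small intestine, in 10 genes chosen by name out of 53801 genes counted: vimentin (Vim), the type II keratins Krt7 and Krt8, the type I keratins Krt18, Krt19, Krt20 and Krt23, nestin (Nes) and the lamins Lmna and Lmnb1. The choice used earlier results of these data, in which Vim was already known to differ between the genotypes, so the values of Vim are given as a description. The study asked what part the histone methyltransferase Mll1 (gene symbol Kmt2a) plays in the fate of secretory cells in the adult intestine. These samples belong to its experiments in which Wnt signalling is held active. The 4 controls were labelled Mll1+/- and the 4 knockouts Mll1-/-, and as the study describes them both genotypes carried a gain-of-function allele of β-catenin (β-catGOF) and a tamoxifen-inducible Cre expressed from the Lgr5 locus. In recombined cells the controls thus also lose Mll1 from a single allele. Mice were a few weeks old and received 1 mg tamoxifen on each of 3 days, and crypts were taken 10 days later and sorted as viable EpCAM+ CD24+ cells after staining that also included CD45, a marker of immune cells. The Cre acts in Lgr5-expressing stem cells, and the study describes the result as a mixture of recombined crypts and crypts without recombination. The sort as described used no marker of recombination, so the sorted cells may hold both. The share of recombined cells in each sample is not given. The methods paragraph on the sort names the Mll1 genotypes without the β-catenin allele.

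Intermediate filaments are ropelike polymers that give cells mechanical strength. Keratins assemble only as pairs of a type I and a type II chain, and simple epithelia such as the gut lining build theirs mainly from Krt8, Krt18 and Krt19, with Krt20 in differentiated cells. Vimentin forms the filaments of mesenchymal cells and can appear in epithelial cells that change state, nestin is a filament protein of progenitor cells, and the lamins line the inner face of the nucleus.

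The promoters of the gene with the widest gap between genotypes and of the principal keratin pair are shown as reference sequence for the members described first below. No value here links a promoter feature to a level or to the genotype difference. They run from 250 bases before to 50 bases after the RefSeq start site (GRCm38.p6), 5′ to 3′ on the strand of the gene. Of the 10 genes 8 had an entry, and no window is printed for the others. Capitals mark TATA boxes (TATAAA) and CCAAT boxes (CCAAT) on either strand. Overlapping matches are joined, and the CCAAT box was added after the Vim sequence had been seen. The Vim window is chr2:13574061-13574360 (plus strand), that of Krt8 is chr15:102004293-102004592 (minus strand) and that of Krt18 is chr15:102027966-102028265 (plus strand).
Vim: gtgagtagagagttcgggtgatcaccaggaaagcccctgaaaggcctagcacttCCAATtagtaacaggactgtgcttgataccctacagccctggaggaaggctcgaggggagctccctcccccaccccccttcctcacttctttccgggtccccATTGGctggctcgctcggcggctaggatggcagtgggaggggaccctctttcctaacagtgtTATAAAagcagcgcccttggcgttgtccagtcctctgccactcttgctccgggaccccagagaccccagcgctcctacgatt
Krt8: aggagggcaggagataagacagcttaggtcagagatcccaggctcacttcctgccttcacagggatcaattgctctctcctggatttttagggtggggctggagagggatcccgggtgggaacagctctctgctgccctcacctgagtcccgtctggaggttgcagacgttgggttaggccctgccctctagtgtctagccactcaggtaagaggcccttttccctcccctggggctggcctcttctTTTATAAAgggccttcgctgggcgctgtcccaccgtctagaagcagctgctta
Krt18: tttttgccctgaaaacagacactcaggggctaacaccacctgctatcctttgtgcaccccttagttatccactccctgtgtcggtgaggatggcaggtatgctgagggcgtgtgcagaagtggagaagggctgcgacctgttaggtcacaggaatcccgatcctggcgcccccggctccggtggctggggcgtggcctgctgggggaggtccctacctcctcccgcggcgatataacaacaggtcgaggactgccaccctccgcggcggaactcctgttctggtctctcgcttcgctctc
The Vim window held a TATA box at position -32 from the start site and CCAAT boxes at -196 and -94, the last on the opposite strand. The Krt8 window held a pair of overlapping TATA boxes, at -3 and -1. No capitals fall in the Krt18 window. Of all 32817 promoter windows of the same length, 13.62% held TATAAA and 37.39% held CCAAT on either strand. The GC box GGGCGG (35.63% of windows), the Tcf/Lef core CTTTGAT (3.73%) and the AP-1 core TGACTCA (5.2%) matched none of these 3 windows.

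Total counts ran from 13037832 to 14380240 per library. The 9 Paneth markers, among them lysozyme (Lyz1) and defensins, were counted in every library, so the markers of the labelled cell type were present. They summed to 241478 to 702386 normalized CPM (counts scaled to library size, with TMM factors), the highest in knockout 3. As a share of library totals they took 29.3% (control 1) to 44.4% (knockout 3). Knockout 3 stood apart: 19662 genes had a count in it, against 22623 to 26074 in the others, and mitochondrial genes took 2.04% of its counts, against 3.26% to 8.78%. Its TMM factor was 0.632, against 0.822 to 1.34 in the others, which raises its normalized CPM. On library totals without TMM factors the median log2 fold change of all tested genes was 0.25 in place of 0.0085. Kmt2a itself had 719, 469, 268 and 284 counts in the controls and 523, 447, 328 and 468 in the knockouts (log2 fold change -0.06, SE 0.24, adjusted p = 0.99, edgeR quasi-likelihood test). Gene-level counts do not resolve the deleted part of Kmt2a, so this does not check the genotype. The same animal number stands on both control 4 and knockout 4, and, although the methods describe littermates, the labels do not say which animals share a litter.

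Vimentin was the member with the widest gap (chr2:13573927-13582826, plus strand, mm10, its exonic sequence free of other genes). Its counts were 80, 41, 18 and 55 in the controls and 1268, 1704, 160 and 1214 in the knockouts. As normalized CPM the controls held 5.01, 3.25, 1.62 and 4.34, and the knockouts 75.3, 97.8, 18.8 and 73.6. Every knockout lay above every control, and knockout 3 was the lowest of its group. The means were 3.56 ± 1.48 (SD, n = 4) in the controls and 66.4 ± 33.6 (n = 4) in the knockouts, a ratio of 18.7. The fitted log2 fold change was 4.21 (SE 0.49, 95% interval 3.13 to 5.28). These are bulk samples, in which more cells making a transcript and more transcript per cell cannot be told apart. Of all 13439 genes tested, 0.186% were called (25 genes; 0.156% called higher in the knockouts and 0.0298% lower, and 0.283% at a 10% false discovery rate) and 4.52% did not overlap between the groups. Vim was the only member of the 9 tested that was called or did not overlap in normalized CPM. On library totals without TMM factors, where 4.33% of genes did not overlap, Krt7 and Lmna did not overlap either, and Vim was again the only member called. Without knockout 3 the ratio was 23.1, and within the sets of libraries that share a run of label numbers it was 20.9 and 15.5.

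**Figure D1:**
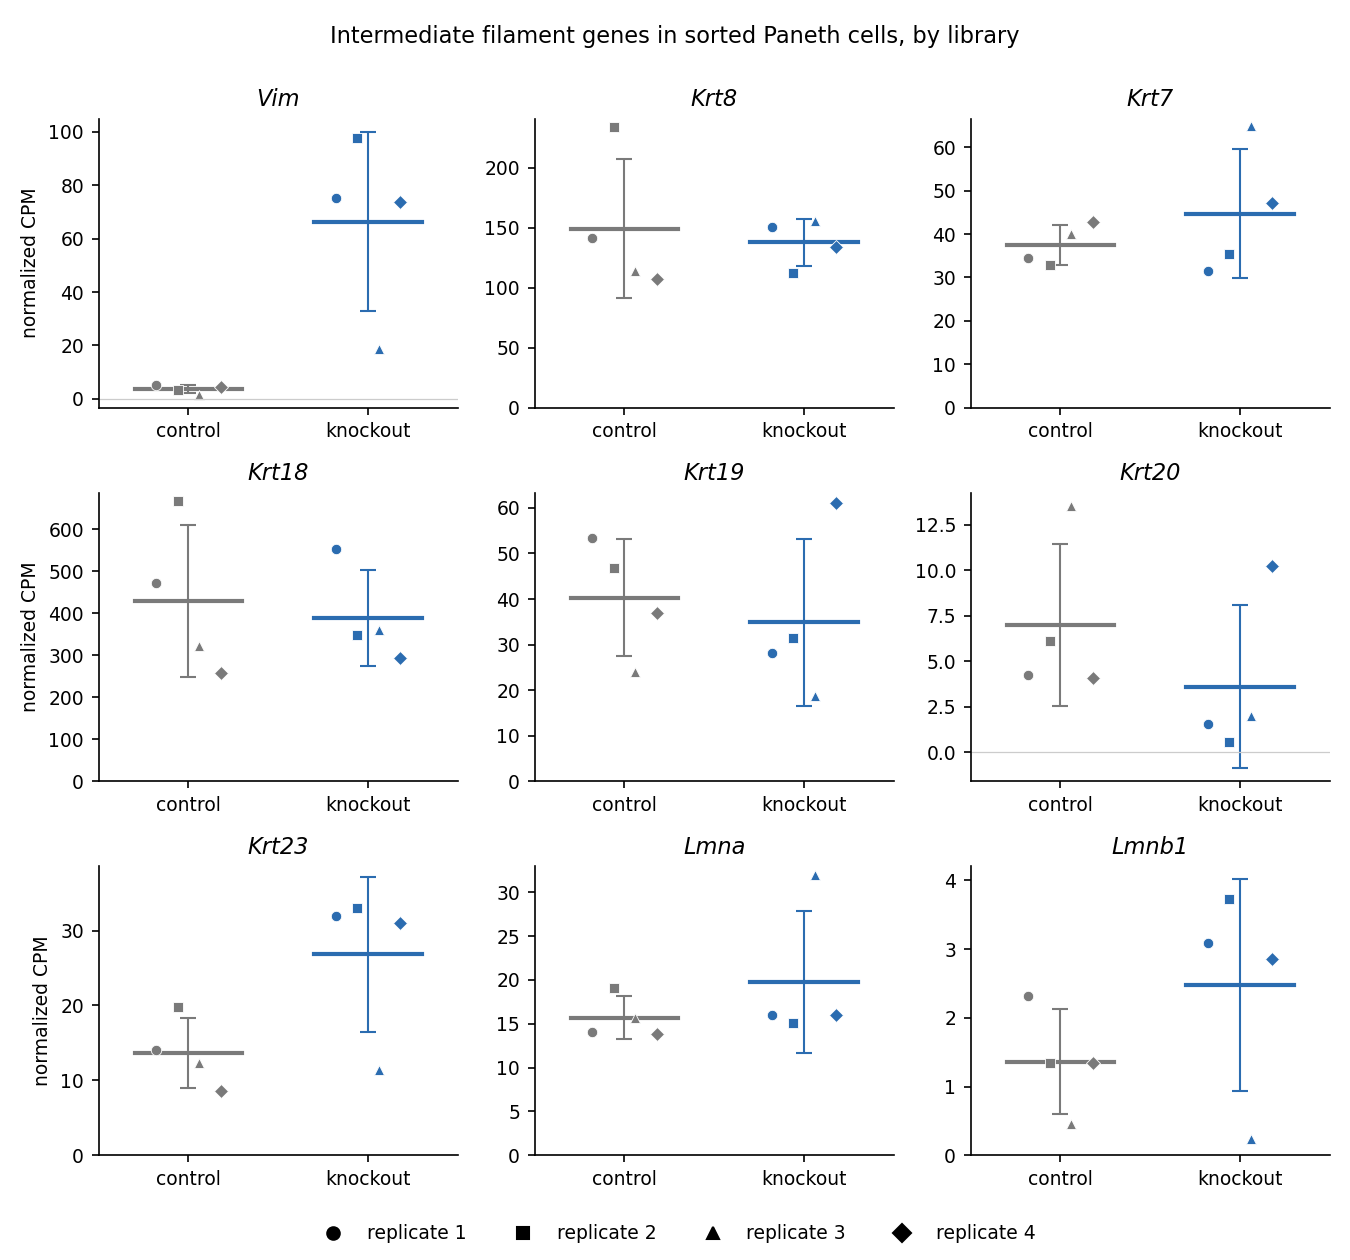
Normalized CPM of each gene in each library (points, with mean and SD as bars), on a separate linear axis for each gene, controls beside knockouts. Vim lies at 1.62 to 5.01 in the controls and 18.8 to 97.8 in the knockouts. The ranges of the other genes overlap on this scale, and the SD bar of Krt20 in the knockouts passes below 0 because the SD exceeds the mean.

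Vimentin is also made by fibroblasts, smooth muscle, vessel and immune cells, so markers of these were read beside it, although the sort was for EpCAM+ epithelial cells. The 15 fibroblast and smooth muscle markers summed to 1.88 to 2.84 CPM in the controls and 1.17 to 2.49 in the knockouts, and 0 of them had enough counts to be tested. The 9 endothelial markers summed to 9.52 to 10.8 in the controls and 6.93 to 9.50 in the knockouts, narrowly lower without overlap. The 16 immune markers summed to 5.53 to 14.7 and 2.30 to 13.8. Of the immune markers 11 never passed 3 counts in any library. Ptprc, the gene of CD45, named here after its values were seen, was counted in all 8 libraries. It had 201, 106, 43 and 37 counts in the controls and 185, 157, 11 and 32 in the knockouts. Its log2 fold change was -0.24 (adjusted p = 0.99, edgeR). The 8 markers of enteric glia and neurons summed to 3.33 to 5.45 and 3.79 to 7.28. None of these summed levels was higher in every knockout than in every control. Of their genes Uchl1, a neuronal enzyme named here after its values were seen, had 2, 0, 2 and 0 counts in the controls and 10, 23, 35 and 7 in the knockouts. It was too low for the main test and was called with no filter (log2 fold change 4.19, adjusted p = 0.0027). The 8 enteroendocrine markers summed to 621 to 777 CPM in the controls and 43.4 to 608 in the knockouts, where knockout 1, at 608, lay close to the lowest control. All 8 had negative fold changes (median log2 -1.63). Of these 8, edgeR called 0, with 4 at an unadjusted p under 0.05, DESeq2 called 2 and limma-voom 1. In edgeR Neurod1, a transcription factor of these cells named here after its values were seen, missed the threshold (log2 fold change -2.27, adjusted p = 0.063) and passed with upper-quartile scaling (adjusted p = 0.045), with at least 10 counts in every library (0.045) and with no filter, and Neurod1 and Tph1 passed without knockout 1. Over all 13439 genes tested, 50.9% had positive fold changes, 924 had an unadjusted p under 0.05, DESeq2 called 138 and limma-voom 95. The 8 tuft cell markers summed to 187 to 592 and 106 to 380, all 8 with negative fold changes (median log2 -0.85). Of these edgeR called 0, with 1 at an unadjusted p under 0.05, and with no filter it called 1. The 6 stem cell markers summed to 717 to 1523 in the controls and 287 to 958 in the knockouts, 5 of them with negative fold changes. Of these 6, edgeR, DESeq2 and limma-voom called 0, with 3 at an unadjusted p under 0.05 in edgeR. With no filter edgeR called 1 of the 6, lower in the knockouts, and 290 of all 37039 genes tested that way. Whether these marker differences bear on the values of the filament genes was not tested.

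**Figure D2:**
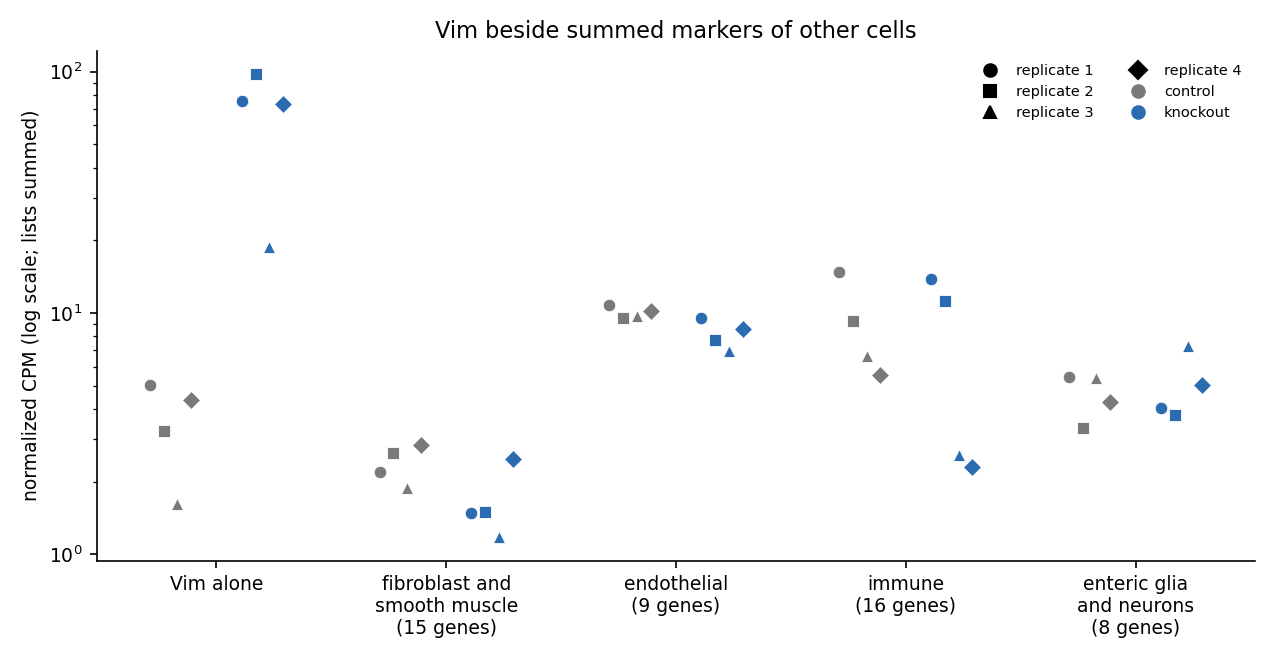
Normalized CPM of Vim and summed normalized CPM of the fibroblast and smooth muscle, endothelial, immune, and enteric glia and neuron markers in each library (log axis), controls against knockouts. Vim separates the genotypes, higher in the knockouts, while the summed fibroblast markers lie at 1.88 to 2.84 in the controls and 1.17 to 2.49 in the knockouts. The summed endothelial markers do not overlap either, lower in the knockouts (9.52 to 10.8 in the controls and 6.93 to 9.50 in the knockouts).

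Krt18 and Krt8, the principal type I and type II keratins of simple epithelia, were the most abundant members, and Krt18 stood above 99.3% of the tested genes per length. Krt18 was at 472, 666, 322 and 259 CPM in the controls and 553, 349, 361 and 293 in the knockouts, with means of 430 ± 181 and 389 ± 114 (SD, n = 4 each). Krt8 was at 142, 234, 114 and 108 CPM in the controls and 151, 112, 155 and 134 in the knockouts, with means of 149 ± 58.2 and 138 ± 19.7 (n = 4 each). Control 2 was highest for both, and the groups overlapped. The log2 fold change was -0.14 for Krt18 (95% interval -0.82 to 0.53, adjusted p = 0.99) and -0.11 for Krt8 (-0.66 to 0.43, adjusted p = 0.99), edgeR's test again. Both signs turn without control 2, and that of Krt18 with limma-voom too. On library totals without TMM factors Krt18 was at 0.097 and Krt8 at 0.095, both under the median of all genes on that scale. The pair moved together over the 8 libraries, with Pearson r = 0.83 and Spearman rho = 0.83 on log2 CPM, and r = 0.54 once control 2 and control 4, the farthest from the median in Krt8, were left out. The libraries share depth and scaling. Per kilobase of exon Krt18 exceeded Krt8 by a ratio of 3.88 ± 0.516 (SD, n = 4) in controls and 3.85 ± 0.945 (n = 4) in knockouts, and the 4 type I members summed exceeded the 2 type II members by 4.04 ± 0.563 and 4.05 ± 0.964. Krt8 shares 5.2% of its exonic sequence with Gm36026 on the other strand and has a pseudogene copy, Krt8-ps, with 69 to 290 counts. The study counted uniquely mapped reads, so reads that match Krt8 and its copy equally would not be counted.

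Krt19, the type I keratin without a tail domain, was at 53.4, 46.8, 24.0 and 36.9 CPM in the controls and 28.3, 31.5, 18.7 and 61.1 in the knockouts. Knockout 4 was highest and knockout 3 lowest, and the log2 fold change was -0.20 (95% interval -0.95 to 0.55, adjusted p = 0.97). It was -0.62 without knockout 4 and -0.0039 without knockout 3, and 0.073 without TMM factors, below the median of all genes on that scale, with no call in any of these. Krt7, a type II keratin of ducts, was at 34.4, 32.8, 40.03 and 42.8 CPM in the controls and 31.6, 35.3, 64.8 and 47.2 in the knockouts. Its log2 fold change was 0.25 (-0.25 to 0.75, adjusted p = 0.92), close to 0 (0.02) without knockout 3. On library totals without TMM factors the controls lay at 30.0 to 39.5 CPM and the knockouts at 40.4 to 57.4, with a log2 fold change of 0.41 (adjusted p = 0.85). Krt20, which marks differentiated gut epithelium, was at 4.26, 6.11, 13.6 and 4.10 CPM in the controls and 1.54, 0.574, 2.00 and 10.3 in the knockouts. Of the knockouts 3 lay below every control and knockout 4 lay among them. The log2 fold change was -0.94 (-2.54 to 0.65, adjusted p = 0.91). It was -2.39 without knockout 4 (adjusted p = 0.30), -0.42 without control 3, -0.58 without knockout 2 and -1.96 with limma-voom (adjusted p = 0.26), with no call in any of these. The markers of differentiated enterocytes summed to 161 to 341 CPM in the controls and 103 to 270 in the knockouts. Of the 7 tested, edgeR called 0, with 2 at an unadjusted p under 0.05. DESeq2 and limma-voom each called Fabp2, a fatty acid binding protein named here after its values were seen, lower in the knockouts (log2 fold change -1.06 and -1.20). In edgeR Fabp2 was called without knockout 4 (-1.44, adjusted p = 0.024) and with no filter (adjusted p = 0.0016).

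Krt23 is a type I keratin. Its counts were 224, 249, 138 and 108 in the controls and 537, 575, 97 and 511 in the knockouts. In CPM the controls held 14.0, 19.8, 12.4 and 8.52, and the knockouts 31.9, 33.0, 11.4 and 31.0. Knockouts 1, 2 and 4 lay above every control, and knockout 3 lay within the control range. The means were 13.7 ± 4.67 and 26.8 ± 10.3 (SD, n = 4 each). The log2 difference was 0.98 (SE 0.34, 95% interval 0.24 to 1.72), and edgeR gave an unadjusted p of 0.014 and an adjusted p = 0.52, so the difference did not pass. It passed without knockout 3 (1.22, adjusted p = 0.026, where 1.08% of genes were called and 0.944% called higher), with limma-voom (adjusted p = 0.043) and with no filter on low counts (adjusted p = 0.0093), but not with DESeq2 (adjusted p = 0.25). Within the 2 library sets the ratio was 1.92 and 2.03. The sets fell on opposite sides of 1 for Krt7 (0.99 and 1.35), Krt8 (0.70 and 1.30) and Krt18 (0.79 and 1.13). They did so too for Krt19 (0.60 and 1.31) and Lmna (0.94 and 1.62). For Krt20 the ratios were 0.20 and 0.69, and for Lmnb1 1.86 and 1.72. Krt23 made up 2.14 ± 0.244% of the summed level of the 6 keratin members per kilobase (SD, n = 4) in controls and 4.53 ± 1.91% (n = 4) in knockouts.

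**Figure D3:**
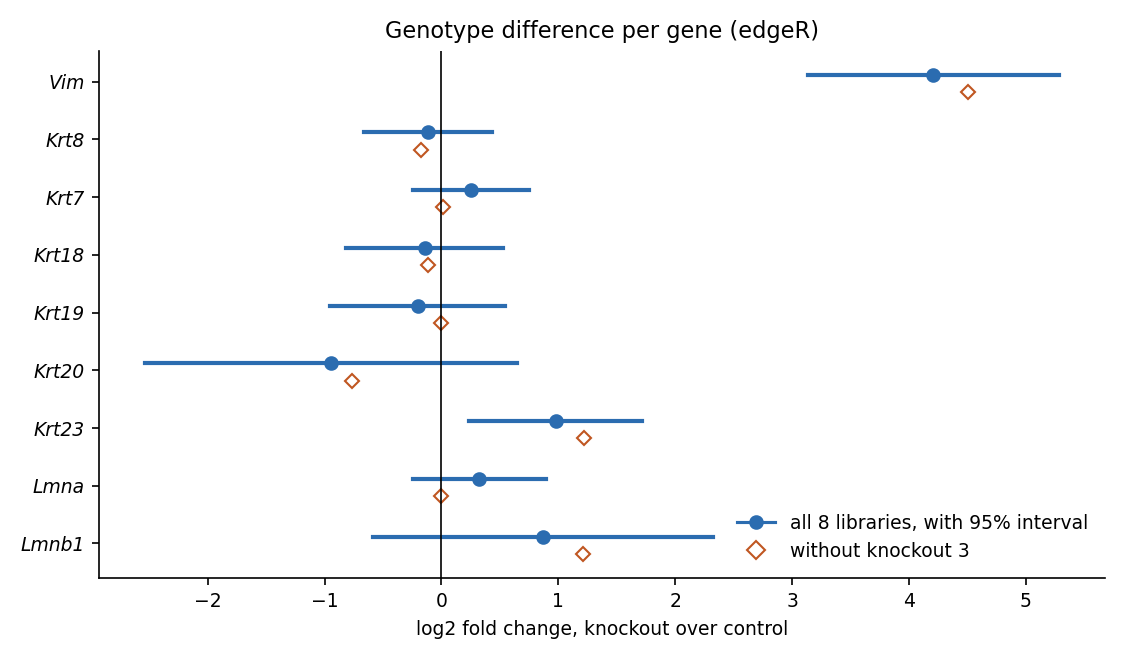
Log2 fold change, knockout over control, of each tested gene with its 95% interval (filled points and bars, all 8 libraries), and without knockout 3 (open diamonds). Vim stands at 4.21, Krt23 at 0.98 with an interval of 0.24 to 1.72, and the other intervals cross 0.

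Per kilobase of exon the order of levels in the controls was Krt18 (299 CPM per kilobase), Krt8 (76.3), Krt19 (21.7), Krt23 (8.74), Krt7 (5.32), Krt20 (3.64), Lmna (2.69), Vim (0.750), Lmnb1 (0.461) and Nes (0.0035). The control ranges of Krt18, Krt8 and Krt19 were each separate from that of the next gene, as was that of Lmna from Vim. The ranges of Krt23, Krt7, Krt20 and Vim each overlapped with the next gene, although Vim lay above Lmnb1 in all 4 controls. In the knockouts Vim, at 14.0 CPM per kilobase, followed Krt23 (17.1) and stood before Krt7 (6.35), and its range overlapped with both. Krt23 lay above Vim in 4 knockouts, and Vim above Krt7 in 3. Vim came to 0.199 ± 0.112% (SD, n = 4) of the keratin sum per kilobase in controls and to 3.72 ± 2.10% (n = 4) in knockouts. Krt8, Krt18 and Krt19 together held 95.4 ± 1.50% of that sum in the controls and 93.2 ± 2.19% in the knockouts. Exon length was the union of annotated exons, and dividing by the longest transcript instead turned part of the order. Vim then stood at 22.7 CPM per kilobase in the knockouts, before Krt19 (22.1) and Krt23 (17.1), and in the controls Krt7 (9.16) stood before Krt23 (8.74) and Lmna (3.97) before Krt20 (3.64).

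**Figure D4:**
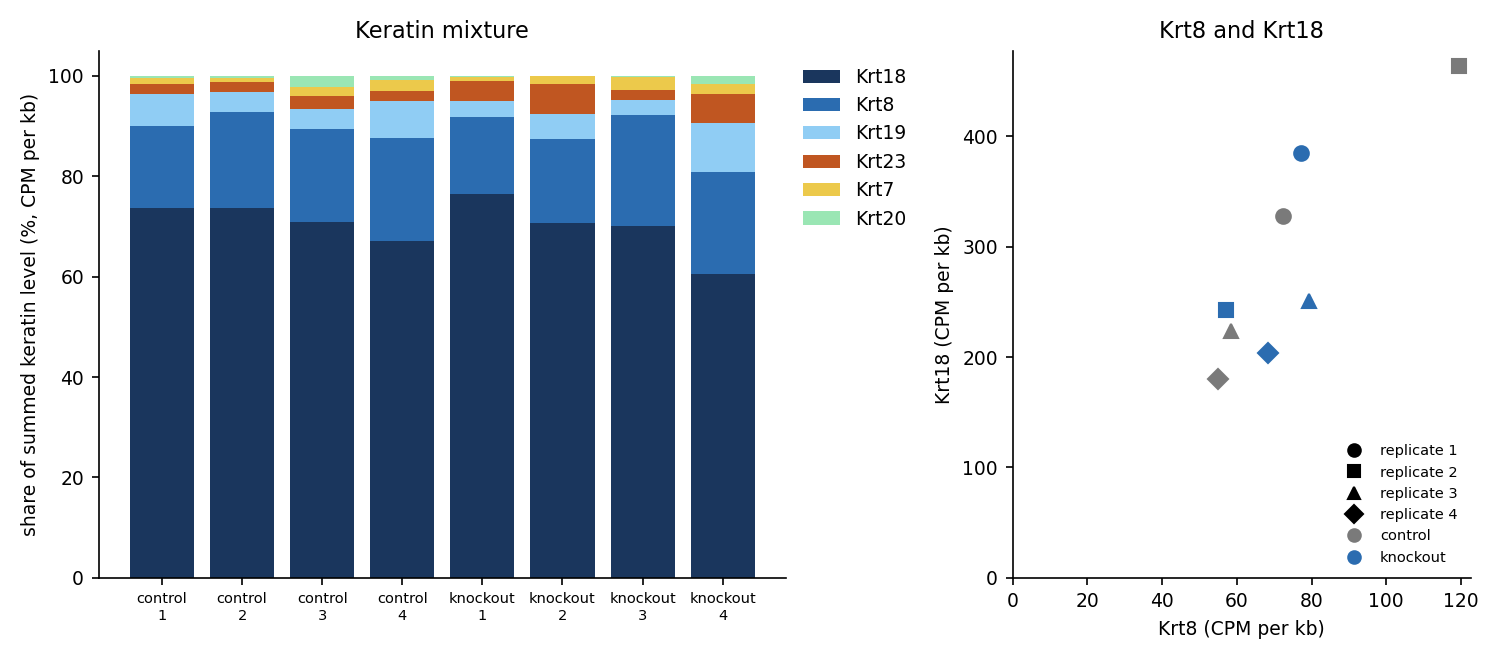
Share of the summed level of the 6 keratin members (CPM per kilobase of exon, percent) taken by each keratin in each library (left, stacked bars), and Krt18 against Krt8 in CPM per kilobase by library (right, linear axes). Krt18 takes 60.5% to 76.5%, and Krt23 lies between 2.01% and 2.51% in the controls and 2.03% and 6.15% in the knockouts.

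Lmna, which encodes lamins A and C, was at 14.1, 19.1, 15.7 and 13.8 CPM in the controls and 16.0, 15.0, 32.0 and 16.0 in the knockouts. Knockout 3 alone lay above the controls on this scale, and the log2 fold change of 0.33 (SE 0.26, 95% interval -0.25 to 0.90, adjusted p = 0.91) was -0.0015 without it. The counts of the knockouts were close, at 270, 262, 272 and 264, against 225, 241, 175 and 175 in the controls. On library totals without TMM factors the controls lay at 12.2 to 17.5 CPM and the knockouts at 19.5 to 20.5, so knockout 3 did not stand out there and every knockout lay above every control (log2 fold change 0.45, adjusted p = 0.82). Lmnb1, on chromosome 18, is the B-type lamin found in most nucleated cells. It was at 2.32, 1.35, 0.449 and 1.34 CPM in the controls and 3.09, 3.73, 0.235 and 2.85 in the knockouts. Knockouts 1, 2 and 4 lay above every control and knockout 3 below, on 2 counts. The log2 fold change was 0.87 (SE 0.66, -0.59 to 2.32, adjusted p = 0.91), and 1.21 without knockout 3 (adjusted p = 0.33). Without that library the groups of Vim, Krt23 and Lmnb1 did not overlap, as for 11.3% of all genes tested. Within the knockouts the libraries held the same order in Lmnb1 as in Vim, with knockout 2 highest and knockout 3 lowest. With the genotype means removed, Vim and Lmnb1 had a Pearson r of 0.98 on log2 CPM over the 8 libraries, given as a description. It was the highest of the 36 pairs of tested members, against 0.55 with the genotype difference left in, and Vim with Lmna came to -0.85. The libraries share depth and scaling, and control 3 and knockout 3 were the lowest of their groups in both genes. The 8 proliferation genes, which mark dividing cells, all had positive fold changes (median log2 0.50), and edgeR called 0, with 2 at an unadjusted p under 0.05 and 0 called by DESeq2 and limma-voom. Over all 13439 genes tested, 50.9% had positive fold changes. Over libraries left out the median of the proliferation list ran from 0.41 without control 4 to 0.84 without control 1. Cdk1, the mitotic kinase, was at 1.23 (adjusted p = 0.39, and called with no filter) and Birc5, the chromosomal passenger survivin, at 0.51 (adjusted p = 0.66).

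**Figure D5:**
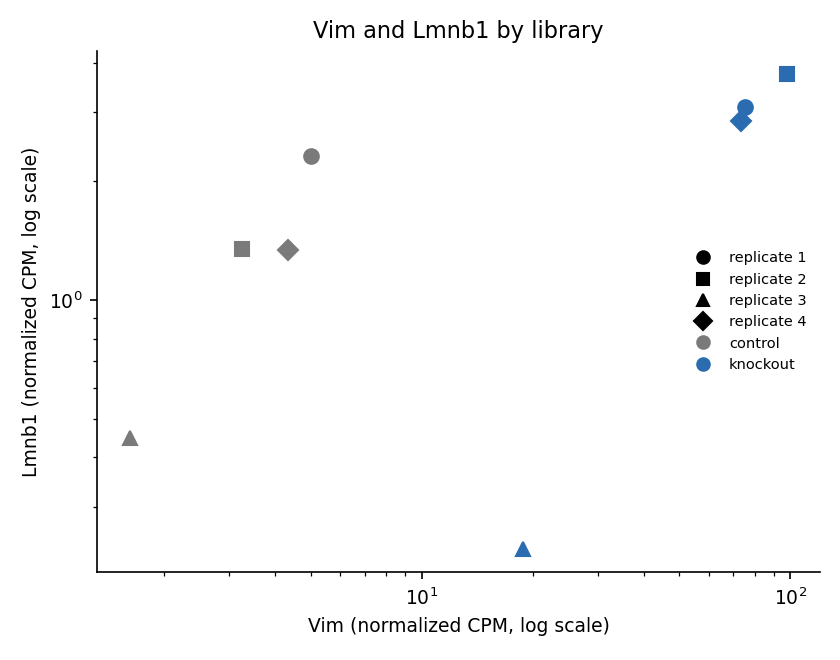
Normalized CPM of Lmnb1 against Vim in each library (both axes log), controls in grey and knockouts in blue, with a symbol for each replicate number, which only names a library. Knockout 3 lies lowest in Lmnb1, at 0.235, and knockout 2 highest, at 3.73.

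Nestin was not detectable at this depth as a level. It had at most 1 count in any library, in control 3 and knockouts 3 and 4, and was not tested.

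Of 32 other intermediate filament genes, 7 were tested, and edgeR called 0, with 0 at an unadjusted p under 0.05 and 0 by DESeq2 and limma-voom. Of the 7, 6 had negative fold changes, with a median log2 of -0.44 against 0.0085 over all tested genes. That median ran from -0.76 without knockout 3 to -0.19 without control 4, and was -1.01 with limma-voom and -0.069 over the 4 genes with at least 10 counts in every library. Krt17, a keratin of stressed epithelium named here after its values were seen, had 0 counts in every control and 11, 22, 0 and 1 in the knockouts, and was called only with no filter. Krt222, a keratin-like gene, was at -1.86 (adjusted p = 0.78) and Nefl, the light neurofilament chain, at -1.21 (adjusted p = 0.79). The summed enteroendocrine markers are given above beside Vim, and their part was not tested. Of 20 filament linkers and desmosome genes, 18 were tested, 13 with positive fold changes and a median of 0.19 (0.097 without knockout 3, 0.099 without knockout 4, 0.12 without control 2 and 0.088 with limma-voom), and edgeR called 0, with 2 at an unadjusted p under 0.05. Dsg2, the desmosomal cadherin of simple epithelia, had means of 59.6 ± 2.93 and 99.3 ± 24.8 CPM (SD, n = 4 each) and a log2 fold change of 0.74 (SE 0.19, adjusted p = 0.31). DESeq2 and limma-voom each called it, as did the fits without knockout 3 and with no filter. Macf1, which links filaments to microtubules and actin, was at 0.50 (adjusted p = 0.59). Of 17 nuclear lamina partners 16 were tested, 10 with positive fold changes and a median of 0.22 (0.047 without knockout 2, 0.073 without knockout 3, 0.080 without control 4, 0.12 without knockout 1 and 0.11 with limma-voom), and 0 were called by edgeR, DESeq2 or limma-voom, with 0 at an unadjusted p under 0.05. Lbr, the lamin B receptor, was at 0.46 (adjusted p = 0.75) and Sun2, which ties the lamina to the cytoskeleton, at 0.50 (adjusted p = 0.86). Of 12 mesenchymal transition genes Cdh1 (E-cadherin) alone was tested, at -0.14 (adjusted p = 0.96, edgeR), and the other 11 had at most 12 counts in any library.

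The genes whose log2 CPM followed Vim most closely over the 8 libraries, of all tested, were Sptssa, Fbln1, Gm4754, Spock2 and Slc16a10, each with Pearson r = 0.97. All share with Vim the step between genotypes and the scaling, and they were picked as the highest of 13439 values. For Krt8 they were F930017D23Rik, Gm26917, Gm13743, Znhit1 and Bloc1s1 (r from 0.94 to 0.92), for Krt20 Gm37289, Cacna2d1, Tmc4-ps, Nkx2-2 and Fcho2 (0.96 to 0.93), and for Lmna Ccdc124, n-R5-8s1, Cdk5rap3, Prkab1 and Mettl4 (0.99 to 0.97). Knockout 3 is the highest library in Lmna with TMM factors and not without them.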

How the data were processed

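RNA-seq was read from 8 libraries of sorted Paneth cells, 4 controls and 4 knockouts. The authors deposited a table of raw counts per gene, made with featureCounts 1.6.3 after bcl2fastq 2.19.1 on mm10, per the labels, and from it 92 spike-in rows were set aside. The cDNA was amplified by PCR with no molecular identifiers stated, so depth limits counting error only. Genes were tested with edgeR 4.0.16 (R 4.3.3): TMM scaling, filterByExpr with a minimum count of 10, a robust quasi-likelihood fit over all genes and Benjamini-Hochberg adjustment. Calls needed an adjusted p no higher than 0.05 and an absolute log2 difference no smaller than 0.5. Intervals are approximate, from the F statistic. DESeq2 1.42.0 and limma-voom (3.58.1) were alternatives. Members and lists were chosen with earlier results of these data known. Genes named were the members, in each of the 5 gene lists (not the marker lists) any gene past both thresholds or else the 2 of lowest unadjusted p, and the 5 most like Vim, Krt8, Krt20 and Lmna. Outside this rule Krt17 and the markers Uchl1, Ptprc, Neurod1, Tph1 and Fabp2 were named after their values were seen. Replicate numbers follow accession order and do not pair libraries. Values without knockout 3 belong to the runs that leave out each library, and were singled out after its values were seen. The p-values set the genotype difference against the spread between these libraries, which the test takes as independent.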

Additional observations from a re-analysis of the deposited data

Results flagged for a closer look

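A gap test for a lone extreme library (Dixon's, 95% level) over 20 groups of 4 passed in 4, where chance gives about 1. The last of these 4, Nes, passes by construction and carries no information. Knockout 4 lay above the other knockouts in Krt20, at 10.3 CPM against 0.574 to 2.00 (gap 0.853 of the range). Knockout 3 lay below the others in Krt23, at 11.4 against 31.0 to 33.0 (0.906), and above them in Lmna, at 32.0 against 15.0 to 16.0 (0.941). On library totals without TMM factors the gap was 0.592 in Lmna and 0.826 in Krt23, both short of the limit, and 0.897 in Krt20. Control 3 held the sole Nes count of its group (gap 1), a single read.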

How the results depend on the processing

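Calls over all genes numbered 25, and 290 with no filter, 13 with at least 10 counts in every library, 138 with DESeq2, 95 with limma-voom and 38 at a 10% false discovery rate with no fold limit. Leaving out each library in turn gave 10 to 152, the highest without knockout 3. Members called numbered 1, and 2 with no filter, with limma-voom and without knockout 3 (Vim and Krt23), a range of 1 to 2 over libraries left out. Signs turned for Krt7 (-0.045) and Krt18 (0.092) with limma-voom, and the ranges over libraries left out were -0.25 to 0.18 for Krt8, -0.36 to 0.14 for Krt18 (both reversed without control 2) and -0.0015 to 0.43 for Lmna (without knockout 3). The cause was not tested. Vim ranged from 3.96 to 4.51 over libraries left out, and was 4.17 with library set as a block and 4.56 with limma-voom. Library totals without TMM factors, added after seeing the data, gave 15 genes and 1 member, Vim at 4.56, and turned the sign of Krt8 (0.095), Krt18 (0.097) and Krt19 (0.073). Per longest transcript, Krt7 stood at 9.16 and 10.9 CPM per kilobase, Lmna at 3.97 and 5.01 and Vim at 1.22 and 22.7 (controls, then knockouts). Marker sums, which had no test, were compared with the SD of their group, a rule set after their values had been seen. Over libraries left out their knockout-to-control ratio crossed 1 for Paneth (0.653 to 1.02), goblet (0.774 to 1.16), immune (0.595 to 1.05) and glia and neuron markers (0.930 to 1.18). Library set as a block called 24 genes. A replicate block on adjacent library numbers, chosen after seeing the data, called 10 genes and 1 member, Vim (4.13). The labels do not call these libraries pairs, and their deviations from the group means correlated at -0.015 to 0.11, so they were not taken as paired. Not every library correlated best with its own number.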
